A study of Mus musculus with 12 samples.

Results

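Macrophages take up fatty acids from their surroundings, store them as triglyceride and burn them, and 10 genes that carry out these steps were followed through 6 culture conditions. They were Lpl, Angptl4, Cd36, Fabp4, Fabp5, Dgat1, Plin2, Pnpla2, Lipa and Cpt1a, taken by name from the 34327 genes of the expression table. The list was chosen by measured values in part, selected on the level of Lpl, which had been seen far higher on plates than in gels with IL-4. The cells were bone marrow–derived macrophages (BMDMs) of wild-type C57BL/6J mice, grown from marrow in medium conditioned by L929 cells, a source of the macrophage growth factor CSF1. They were cultured on tissue culture (TC) plates, in low-collagen gels (2 mg/ml) or in high-collagen gels (7 mg/ml) of rat tail type I collagen. In each culture they were left untreated or given recombinant murine IL-4 (20 ng/ml), a type 2 cytokine, and all were labelled 24 hours. Each condition had 2 RNA sequencing libraries, 12 in all, and every group shared the same genotype. The comparisons addressed how IL-4, the collagen concentration and the kind of culture bore on these genes. The labels do not say whether the 2 libraries of a condition came from separate mice or cultures, so the p-values measure the spread between these libraries, which may be technical.

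The genes fall along one route. Lipoprotein lipase (Lpl) releases fatty acids from the triglyceride of circulating lipoproteins, and the protein of Angptl4 inhibits it. Cd36 is a scavenger receptor that also takes up long-chain fatty acids, and Fabp4 and Fabp5 are carriers that hold fatty acids in the cytosol. Dgat1 catalyses the last step of triglyceride synthesis, Plin2 coats the lipid droplet, Pnpla2 (adipose triglyceride lipase) starts its breakdown, Lipa cleaves lipoprotein lipids in the lysosome, and Cpt1a lets fatty acids into mitochondria to be oxidized. Macrophages given IL-4 are known for fatty acid oxidation and for lysosomal lipolysis of lipids taken up through CD36, and several of these genes are targets of the nuclear receptor PPARγ.

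Expression was measured as TPM, a relative abundance that divides by transcript length and sets every library to nearly the same total, here 999658 to 999723. Depth is not kept in this unit and is unknown here, and a rise of abundant genes lowers the values of the rest. Fewer cells of a type and less RNA per cell cannot be told apart in such bulk samples. Between 11543 and 11910 genes reached 1 TPM per library, and replicate libraries correlated with r of 0.980 to 0.985 across genes. The macrophage markers, 6 symbols under 7 entries, summed to 3748 to 4754 TPM in every library, fibroblast markers to at most 0.668 TPM and dendritic cell markers to at most 1.50 TPM. Single macrophage markers moved within that sum. On untreated plates, in low- and in high-collagen gels, mean Csf1r was 717, 1633 and 1854 TPM and mean Cd68 2257, 1799 and 1441 TPM. With IL-4 Fcgr1 had log2 fold changes of −1.67 (low-collagen gels), −1.74 (high-collagen gels) and −1.53 (plates). Those of Cd68 were 0.54, 0.60 and 0.32. Granulocyte markers summed to 3.02 to 12.5 TPM, with the highest sums in untreated low-collagen gels. Adipoq, Pecam1, Kdr and S100a8, from the adipocyte, endothelial and granulocyte lists, moved with IL-4 in some cultures and are given with the pathway genes. On plates the cells also met a different seeding, handling and RNA harvest than in gels, which cannot be told apart from the substrate. The sources used here do not say whether plate and gel libraries were made side by side from the same cells.

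Lpl was higher in every plate library than in every gel library. It was at 224 and 229 TPM on untreated plates and at 367 and 365 TPM on plates with IL-4. In low-collagen gels it was at 39.5 and 37.7 TPM untreated and at 33.3 and 25.1 TPM with IL-4. In high-collagen gels it was at 30.3 and 38.6 TPM untreated and at 22.3 and 28.5 TPM with IL-4. Within the gels the ranges of neighbouring conditions overlapped in the order of their means, from untreated low-collagen gels down to high-collagen gels with IL-4. With IL-4 the mean on plates, 366 ± 1.26 TPM (SD, n = 2), was 12.5 times that in low-collagen gels and 14.4 times that in high-collagen gels. These ratios are what chose the genes, so they are a description with no test. Untreated plates were not part of that choice, and there the mean was 5.87 and 6.58 times that in low- and high-collagen gels. Lpl lies on chromosome 8 of GRCm38, from 68880491 to 68907448 on the plus strand, and is annotated as protein coding, as are the other 9 genes.

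Angptl4, the inhibitor of Lpl, had a different order. It was at 0.938 and 0.735 TPM on untreated plates and at 0.853 and 0.520 TPM on plates with IL-4. In low-collagen gels it was at 8.95 and 7.98 TPM untreated and at 0.386 and 0.662 TPM with IL-4. In high-collagen gels it was at 13.4 and 11.3 TPM untreated and at 2.77 and 2.67 TPM with IL-4. Untreated gels were the highest conditions, high above low collagen, while plates and low-collagen gels with IL-4 were at or under 1 TPM and overlapped. At such levels the log2(TPM + 1) scale used for the tests understates a fold change. Angptl4 lies on chromosome 17 from 33773750 to 33781830, on the minus strand.

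Cd36, the uptake receptor, was the most abundant of the 10 genes on plates with IL-4, at 1754 and 1982 TPM, against 559 and 560 TPM on untreated plates. In low-collagen gels it was at 95.2 and 115 TPM untreated and at 223 and 211 TPM with IL-4. In high-collagen gels it was at 151 and 150 TPM untreated and at 337 and 341 TPM with IL-4. None of the 6 conditions overlapped with the next in the order of means, and even untreated plates lay above all gels. Fabp4 was lower by level, at 41.7 and 42.4 TPM on untreated plates and at 121 and 108 TPM with IL-4. In low-collagen gels Fabp4 was at 25.0 and 21.6 TPM untreated and at 70.5 and 70.8 TPM with IL-4, and in high-collagen gels at 16.7 and 21.04 TPM untreated and at 53.0 and 51.0 TPM with IL-4. IL-4 libraries of every culture lay above all untreated libraries of Fabp4, plates included. Cd36 lies on chromosome 5 from 17781690 to 17888801 and Fabp4 on chromosome 3 from 10204088 to 10208576, both on the minus strand.

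Fabp5, the other carrier, was far more abundant than Fabp4. It was at 809 and 785 TPM on untreated plates and at 1054 and 994 TPM with IL-4. In low-collagen gels it was at 847 and 905 TPM untreated and at 1134 and 1098 TPM with IL-4. In high-collagen gels it was at 500 and 547 TPM untreated and at 920 and 904 TPM with IL-4. The lowest condition was thus untreated high-collagen gels and the highest low-collagen gels with IL-4. Fabp5 lies on chromosome 3 from 10012548 to 10016607 on the plus strand, and 9.21% of the 31-base words of its transcripts are found in other genes too, most of them in Gm6166 (7.24%), so a part of its reads could have been divided. That share was 5.05% for Plin2, 3.24% for Lpl, 2.15% for Cpt1a and at most 0.37% for the other 6 genes.

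Dgat1, which makes triglyceride, was at 15.9 and 16.1 TPM on untreated plates and at 12.5 and 12.9 TPM with IL-4. Its values were 27.6 and 26.5 TPM in untreated low-collagen gels, 23.6 and 19.8 TPM with IL-4 there, 25.3 and 21.9 TPM in untreated high-collagen gels and 16.4 and 27.1 TPM in high-collagen gels with IL-4. All 8 gel libraries lay above the 4 plate libraries, and the replicates in high-collagen gels with IL-4 lay further apart than those of any other condition. Plin2, on the droplet surface, was at 438 and 461 TPM on untreated plates and at 636 and 644 TPM with IL-4. In gels without IL-4 Plin2 was at 877 and 847 TPM with low and 822 and 792 TPM with high collagen, and with IL-4 it was at 487 and 526 TPM and at 586 and 579 TPM. Untreated gels were the highest conditions and untreated plates the lowest. Dgat1 lies on chromosome 15 from 76502015 to 76511953 and Plin2 on chromosome 4 from 86648386 to 86670060, both on the minus strand.

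Pnpla2, the droplet lipase, was at 38.4 and 37.3 TPM on untreated plates and at 60.0 and 61.7 TPM with IL-4. Its gel values were 119 and 111 TPM (low collagen, untreated), 78.3 and 71.5 TPM (low collagen, IL-4), 138 and 140 TPM (high collagen, untreated) and 110 and 98.5 TPM (high collagen, IL-4). Every gel library of Pnpla2 was above every plate library. Cpt1a, the gate to mitochondria, was at 34.6 and 34.4 TPM on untreated plates and at 46.2 and 48.5 TPM with IL-4. In untreated gels it was at 62.5 and 68.8 TPM (low collagen) and 69.5 and 70.4 TPM (high collagen), and with IL-4 at 39.3 and 36.5 TPM and at 51.0 and 51.6 TPM. Low-collagen gels with IL-4 thus fell between untreated plates and plates with IL-4 for Cpt1a. Pnpla2 lies on chromosome 7 from 141455198 to 141460743 and Cpt1a on chromosome 19 from 3322334 to 3385733, both on the plus strand.

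Lipa, the lysosomal lipase, was at 723 and 747 TPM on untreated plates and at 831 and 851 TPM with IL-4. In low-collagen gels it was at 454 and 493 TPM untreated and at 407 and 380 TPM with IL-4, and in high-collagen gels at 495 and 544 TPM untreated and at 440 and 477 TPM with IL-4. All plate libraries lay above all gel libraries, and the gel conditions overlapped in part. It lies on chromosome 19 from 34492318 to 34527474, on the minus strand. Summed over the 10 genes, plates with IL-4 held 4883 and 5067 TPM against 2884 and 2914 TPM on untreated plates, while untreated gels held 2261 to 2634 TPM and gels with IL-4 held 2439 to 2560 TPM. Most of the rise on plates was that of Cd36, from a mean of 559 to 1868 TPM. The sum also includes Lpl, which was chosen from the libraries with IL-4.

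**Figure D1:**
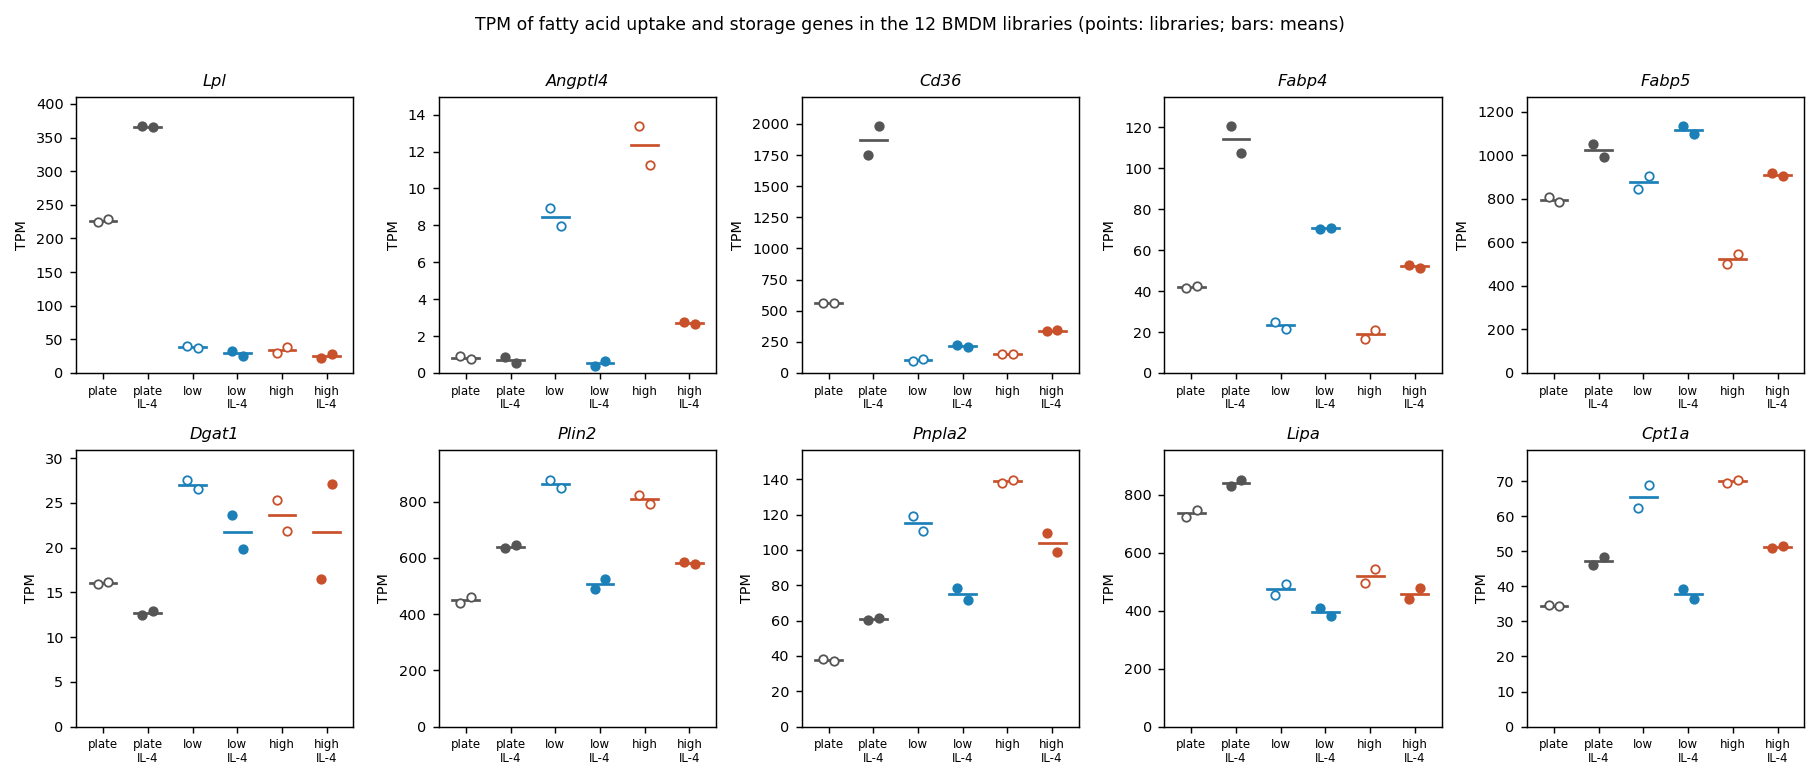
TPM of each of the 10 genes (y axes, each from 0) in the 12 libraries, with conditions on the x axes, points for libraries and bars for the mean of the 2 libraries; low and high are gels of 2 and 7 mg/ml collagen. Lpl lies at 224 to 367 TPM on plates and at 22.3 to 39.5 TPM in gels, and Angptl4 is highest in untreated gels at 7.98 to 13.4 TPM.

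With IL-4 the uptake receptor and the carriers rose in every culture, while Plin2, Pnpla2, Lipa and Cpt1a fell in gels and rose on plates. Angptl4 fell in both gels, and Dgat1 was not called in any culture. The log2 differences of Lpl with IL-4 were −0.41 in low-collagen gels, −0.43 in high-collagen gels and 0.69 on plates. They rest on the IL-4 libraries that took part in the choice of the genes, so they are values with no test. Calls were made by limma on log2(TPM + 1) at an adjusted p under 0.2, the threshold of the study, with Benjamini-Hochberg adjustment over 11852 genes for the gels and 11865 genes where plates took part. With 2 against 2 libraries an exact permutation test of 1 gene could not go below p = 0.333, so the tests rest on the spread estimated across genes.

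In low-collagen gels 8 of the 9 genes tested were called with IL-4, 3 higher and 5 lower, where 53.6% of all genes tested were called, 13.2% higher and 40.4% lower. In high-collagen gels the count was also 8, again 3 higher and 5 lower, against 34.3% of all genes, 11.5% higher and 22.8% lower. On plates 7 of the 9 genes tested were called and all 7 were higher, against 38.8% of all genes, 14.7% higher and 24.0% lower. Over the 9 genes the median log2 fold change was −0.31 with low and −0.18 with high collagen, where the median of all genes was −0.19 and −0.10, and it was 0.44 on plates, where the median of all genes was −0.06. Because TPM are relative, each library was also rescaled by its median ratio to the others, which brought these medians of all genes to within 0.01 of 0. Calls of all genes then went from 1567 higher and 4784 lower to 2791 and 2497 in low-collagen gels, from 1366 and 2698 to 1989 and 1766 in high-collagen gels, and from 1745 and 2853 to 2235 and 2402 on plates. Under that rescaling Lipa lost its calls in both gels, which left 7 of the 9 genes, and the 7 calls on plates stood.

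Angptl4 had the largest fall with IL-4 among the 10 genes, by 2.64 on the log2 scale in low-collagen gels (SE 0.173, limma adjusted p = 3.31e-05) and by 1.84 in high-collagen gels (SE 0.173, adjusted p = 0.000338). On plates its log2 fold change was −0.13 (95% interval −0.55 to 0.29, limma adjusted p = 0.686) at levels under 1 TPM. Fabp4 rose by 1.56 in low-collagen gels, 1.42 in high-collagen gels and 1.42 on plates on the log2 scale, each called by limma. Cd36 rose by 1.04, 1.17 and 1.74 in the same order. Fabp5 rose by 0.35 in low-collagen gels, 0.80 in high-collagen gels and 0.36 on plates. Limma called these 3 uptake and carrier genes higher in every culture. Of all genes 13.2% were called higher in low-collagen gels, 11.5% in high-collagen gels and 14.7% on plates. The share of all genes called higher in all 3 cultures is not given here.

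Plin2 fell by 0.77 on the log2 scale in low-collagen gels (SE 0.0569, limma adjusted p = 6.42e-05) and by 0.47 in high-collagen gels (adjusted p = 0.00124), and rose by 0.51 on plates (SE 0.0518, adjusted p = 7.72e-05). Pnpla2 had log2 fold changes of −0.61, −0.41 and 0.67 in low-collagen gels, high-collagen gels and on plates, and Cpt1a of −0.78, −0.44 and 0.44, all called by limma. Lipa changed less, by −0.27, −0.18 and 0.19 (limma adjusted p = 0.0343, 0.159 and 0.0688). Its call on plates was lost without untreated replicate 1 (adjusted p = 0.254) or without IL-4 replicate 2 (adjusted p = 0.225), and its call in high-collagen gels without untreated replicate 2 (adjusted p = 0.491) or IL-4 replicate 1 (adjusted p = 0.512). Over all alternatives these adjusted p-values of Lipa from limma ranged from 0.0115 to 0.254 on plates and from 0.0478 to 0.514 in high-collagen gels. Dgat1 was not called in any culture, with log2 fold changes of −0.31 in low-collagen gels (95% interval −0.79 to 0.18), −0.15 in high-collagen gels (−0.64 to 0.34) and −0.31 on plates (−0.74 to 0.11). It was called when only the compared libraries were fitted, in low-collagen gels (limma adjusted p = 0.12) and on plates (adjusted p = 0.0744), and in high-collagen gels without IL-4 replicate 2 (adjusted p = 0.101). Whether the IL-4 responses on plates and in gels differed was not tested, because that contrast took part in the choice of the genes.

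**Figure D2:**
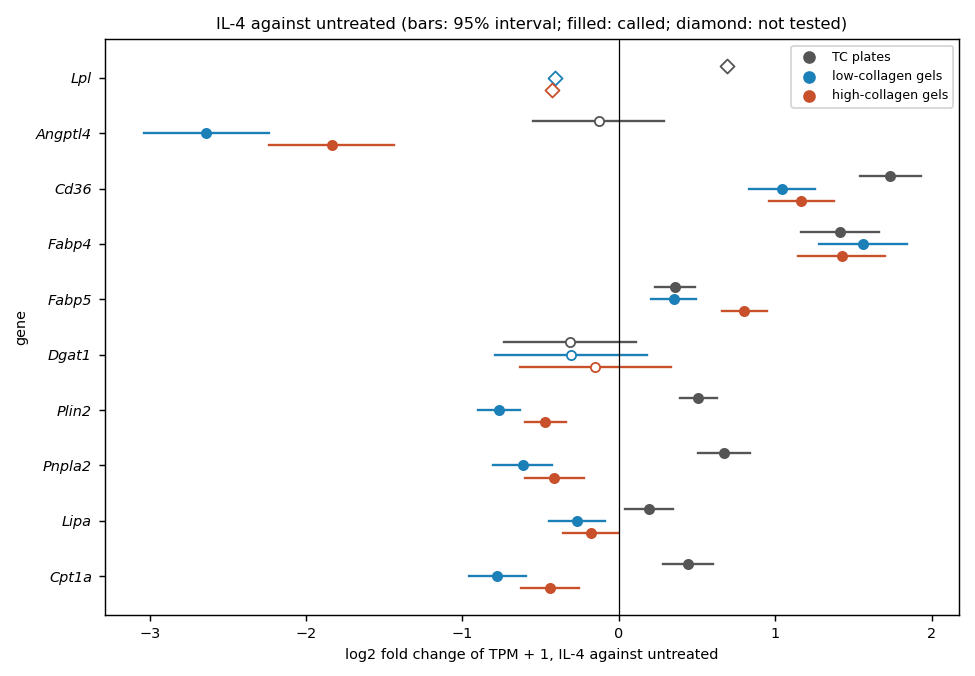
Log2 fold change of TPM + 1 with IL-4 against untreated (x axis) for each gene (y axis) on TC plates and in low- and high-collagen gels, with bars for the 95% interval from limma, filled points for calls at an adjusted p under 0.2, open points for genes not called and open diamonds for Lpl, which was not tested. Plin2, Pnpla2, Lipa and Cpt1a lie below 0 in both gels and above 0 on plates, while Cd36, Fabp4 and Fabp5 lie above 0 in all 3 cultures.

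The promoters of 5 of the 10 genes, Cd36, Plin2, Pnpla2, Lipa and Cpt1a, were matched by symbol in RefSeq's table for GRCm38.p6. They are shown for Plin2, Pnpla2 and Cpt1a, which fell with IL-4 in gels and rose on plates, and for Cd36, which rose in all 3 cultures. Lipa also fell in gels and rose on plates, by smaller amounts, but its sequence is not printed. Each sequence runs 5′ to 3′ on the gene's own strand from 250 to 51 bases before the RefSeq start, and capitals mark AGGTCA or its reverse complement TGACCT, the hexamer that nuclear receptors such as PPARγ bind in pairs.
Cd36: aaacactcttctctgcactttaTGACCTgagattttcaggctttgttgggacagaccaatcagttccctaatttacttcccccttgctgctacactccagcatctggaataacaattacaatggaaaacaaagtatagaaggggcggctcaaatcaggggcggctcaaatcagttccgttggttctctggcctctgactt
Plin2: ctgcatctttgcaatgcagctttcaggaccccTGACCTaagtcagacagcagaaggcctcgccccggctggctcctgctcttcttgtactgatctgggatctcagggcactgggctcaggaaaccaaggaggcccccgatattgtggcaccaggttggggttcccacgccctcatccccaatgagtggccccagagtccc
Cpt1a: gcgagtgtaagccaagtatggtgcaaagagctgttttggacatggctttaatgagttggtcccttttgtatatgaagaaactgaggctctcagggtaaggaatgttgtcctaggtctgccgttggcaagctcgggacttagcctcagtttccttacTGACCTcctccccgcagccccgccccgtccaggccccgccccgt
Pnpla2: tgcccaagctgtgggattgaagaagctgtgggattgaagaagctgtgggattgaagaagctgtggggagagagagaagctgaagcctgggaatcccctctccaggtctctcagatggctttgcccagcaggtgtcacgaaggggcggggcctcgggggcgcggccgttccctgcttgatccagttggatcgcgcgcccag
They lie at chr5:17835947-17836146 (minus strand), chr4:86670110-86670309 (minus strand), chr19:3323051-3323250 (plus strand) and chr7:141454938-141455137 (plus strand). The first base of the hexamer stood 228 bases before the start for Cd36, 218 for Plin2 and 94 for Cpt1a, and the Pnpla2 and Lipa windows held none on either strand. Of the 32851 promoter windows of the same length in the table, 11.38% held at least 1 such hexamer. A match here is a description of the letters and not of a bound site. The RefSeq starts of Cd36 and Cpt1a lie well inside the spans that the gene annotation gives for these genes. The bases checked after the RefSeq start were not found in the annotated transcripts of Cd36, while those of the other genes were.

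Without IL-4, the genes also differed between gels and plates. Lpl, Cd36, Fabp4 and Lipa were lower in both gels than on plates, while Angptl4, Pnpla2, Plin2, Cpt1a and Dgat1 were higher. Fabp5 was slightly higher in low-collagen gels and lower in high-collagen gels. All 10 genes were called by limma in low-collagen gels against plates, 6 higher and 4 lower, where 72.8% of all genes were called, 28.5% higher and 44.3% lower. All 10 were also called in high-collagen gels against plates, 5 higher and 5 lower, against 73.5% of all genes, 28.0% higher and 45.5% lower. With backgrounds this high the counts themselves say little about the 10 genes. Both comparisons share the untreated plate libraries. The median of all genes was −0.13 and −0.16 on the log2 scale and that of the 10 genes 0.43 and 0.01. After rescaling, calls of all genes went from 3383 higher and 5257 lower to 4397 and 4270 in low-collagen gels and from 3318 and 5403 to 4392 and 4353 in high-collagen gels, and all 10 genes stayed called.

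Lpl was lower in untreated low-collagen gels than on untreated plates by a log2 fold change of −2.52 (95% interval −2.86 to −2.18, limma adjusted p = 7.18e-07) and in high-collagen gels by −2.69 (−3.04 to −2.35, adjusted p = 4.34e-07). Cd36 had log2 fold changes of −2.41 (SE 0.0865) in low- and −1.89 in high-collagen gels, Fabp4 of −0.83 and −1.12 and Lipa of −0.63 and −0.50. In the other direction, Angptl4 was higher by 2.37 (SE 0.187, limma adjusted p = 3.7e-06) and 2.86 (adjusted p = 1.06e-06), the largest rises of the 10 genes. Pnpla2 was higher by 1.58 and 1.85, Plin2 by 0.94 and 0.84, Cpt1a by 0.91 and 1.00 and Dgat1 by 0.72 and 0.53. Fabp5 was higher by 0.14 in low-collagen gels (limma adjusted p = 0.0668) and lower in high-collagen gels (−0.61, adjusted p = 1.11e-05). The rise of Fabp5 was not called without untreated plate replicate 2 (adjusted p = 0.235) or untreated low-collagen replicate 2 (adjusted p = 0.291).

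With IL-4 the same contrast is given as values alone. Lipa was 2.14 times as high on plates as in low-collagen gels and 1.84 times as high as in high-collagen gels, and for Cd36 the ratios were 8.61 and 5.50. For Plin2 the ratio was 1.26 and 1.10, where on untreated cells plates held 0.522 and 0.557 times the level in gels. Pnpla2 and Dgat1 were lower on plates, at 0.812 and 0.585 times and at 0.584 times the gel levels. Angptl4 on plates with IL-4 overlapped with low-collagen gels and was at 0.252 times the level in high-collagen gels.

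**Figure D3:**
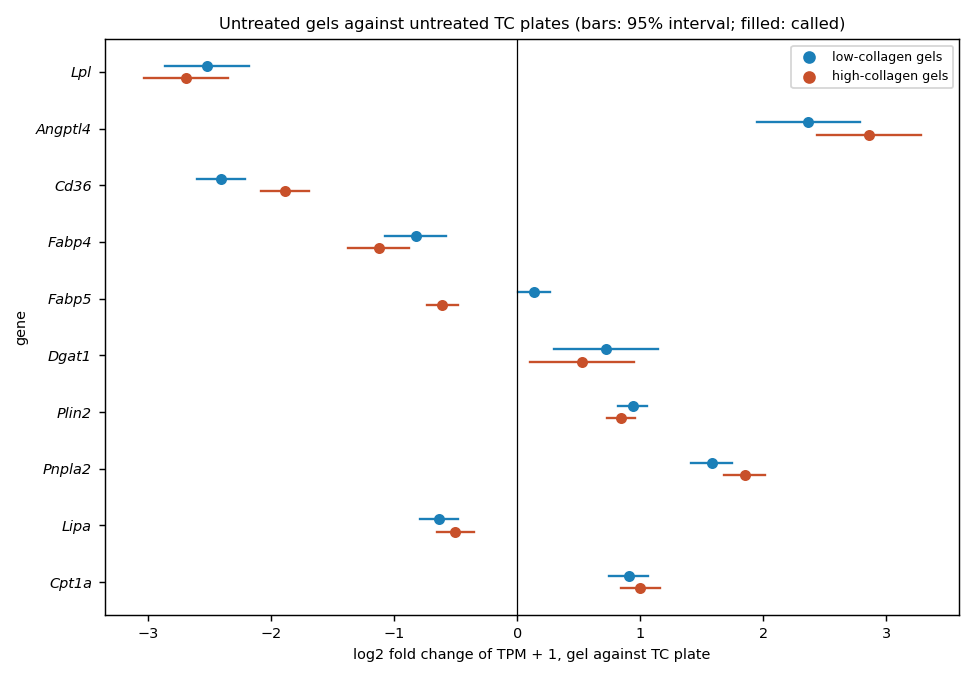
Log2 fold change of TPM + 1 in untreated gels against untreated TC plates (x axis) for each gene (y axis), for low- and high-collagen gels, with bars for the 95% interval from limma and filled points for calls at an adjusted p under 0.2. Lpl lies at −2.52 and −2.69 and Angptl4 at 2.37 and 2.86, the extremes of the 10 genes together with Cd36 at −2.41 in low-collagen gels.

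The collagen concentration was called for more of the 10 genes with IL-4 than without, and so it was over all genes (21.1% against 8.02%). The greater count with IL-4 is thus not particular to the 10 genes, and the difference between counts was not itself tested. With IL-4, Angptl4, Cd36, Pnpla2, Cpt1a, Lipa and Plin2 were higher in high- than in low-collagen gels, while Fabp4 and Fabp5 were lower. Thus 8 of the 10 genes were called by limma, 6 higher and 2 lower, where 21.1% of all genes were called, 14.1% higher and 6.99% lower. The 10 include Lpl, whose outcome with IL-4 is not read as a test. Without IL-4 the count was 3 of the 10 genes, Cd36 and Pnpla2 higher and Fabp5 lower, against 8.02% of all genes, 3.23% higher and 4.79% lower. Over the 10 genes the median log2 fold change was 0.21 with IL-4 and −0.001 without, against 0.06 and −0.02 for all genes. After rescaling, calls of all genes went from 1672 higher and 828 lower to 1218 and 1350 with IL-4 and from 383 and 568 to 455 and 427 without. Lipa and Plin2 lost their calls with IL-4 then, which left 6 genes, and the 3 calls without IL-4 stood.

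The largest of these differences was that of Angptl4 with IL-4, at 1.29 on the log2 scale (SE 0.173, limma adjusted p = 0.013), from a mean of 0.524 ± 0.195 TPM (SD, n = 2) in low-collagen gels to 2.72 ± 0.0723 TPM (SD, n = 2) in high-collagen gels. Without IL-4 it was 0.49 (95% interval 0.09 to 0.89, adjusted p = 0.23). Cd36 was higher by 0.64 with IL-4 (SE 0.0896, limma adjusted p = 0.0146) and by 0.52 without (adjusted p = 0.0615), and the second of these calls was lost without either untreated high-collagen replicate (adjusted p = 0.212 and 0.223). Fabp5 had log2 fold changes of −0.29 with IL-4 (limma adjusted p = 0.0425) and −0.74 without (SE 0.0621, adjusted p = 0.00713), and the first of these was not called without high-collagen replicate 2 (adjusted p = 0.212). Pnpla2 was higher by 0.47 with IL-4 (limma adjusted p = 0.0255) and by 0.27 without (adjusted p = 0.176, which was over the threshold with any 1 of the compared libraries left out and ranged from 0.0946 to 0.429 over all alternatives), and Cpt1a by 0.43 with IL-4 (adjusted p = 0.0303) and by 0.09 without (adjusted p = 0.633).

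The calls of Fabp4, Lipa and Plin2, smaller differences with IL-4, were lost when single libraries were left out. Fabp4 had a log2 fold change of −0.43 (limma adjusted p = 0.0863), which was −0.46 to −0.41 with any 1 of the 4 compared libraries left out, and the adjusted p was then between 0.208 and 0.297. Lipa at 0.22 (limma adjusted p = 0.148) was likewise not called without any 1 of them (adjusted p = 0.207 to 0.478), and Plin2 at 0.20 (adjusted p = 0.0892) was not called without high-collagen replicate 1 or 2 or low-collagen replicate 1 (adjusted p = 0.253, 0.265 and 0.297). With these libraries left out in turn, the number of the 10 genes called with IL-4 was 5 without high-collagen replicate 1, 4 without high-collagen replicate 2, 5 without low-collagen replicate 1 and 6 without low-collagen replicate 2. Without IL-4 it was 1 without either high-collagen replicate and 2 without either low-collagen replicate. For Lpl the log2 fold change between gels with IL-4 was −0.19, given without a test because these libraries took part in its choice. Lpl stays in the count and the median of the 10 genes, but its lack of a call with IL-4 is not read as a result. Without IL-4 its log2 fold change was −0.17 (95% interval −0.58 to 0.24, limma adjusted p = 0.691), which did not pass the test. Dgat1 did not pass the test with or without IL-4, at −0.03 (−0.52 to 0.45) and −0.19 (−0.68 to 0.29).

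Whether IL-4 acted differently in the 2 gels was tested as the interaction of IL-4 and collagen. None of the 10 genes was called by limma, and 4 had an unadjusted p under 0.05 (Angptl4, Cpt1a, Fabp5 and Plin2). The outcome of Lpl among these is not read as a test. Of all 11852 genes 1171 had such an unadjusted p, and 0.363% of all genes were called, 0.194% higher and 0.169% lower, 23 and 20 genes, or 14 and 25 after rescaling. Fabp5 came closest, with a log2 interaction of 0.45 (95% interval 0.25 to 0.66, limma adjusted p = 0.216), and was called when genes under a mean of 5 TPM were left out (adjusted p = 0.194), after quantile normalization (adjusted p = 0.199) or when all 12 libraries were fitted together (adjusted p = 0.0896), within a range of 0.0896 to 0.571 over all alternatives. Over the 10 genes the interaction ranged from −0.14 for Fabp4 to 0.80 for Angptl4 (95% interval 0.23 to 1.37, adjusted p = 0.386). For Lpl, which the IL-4 libraries chose, it was −0.02, given as a value without a test.

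**Figure D4:**
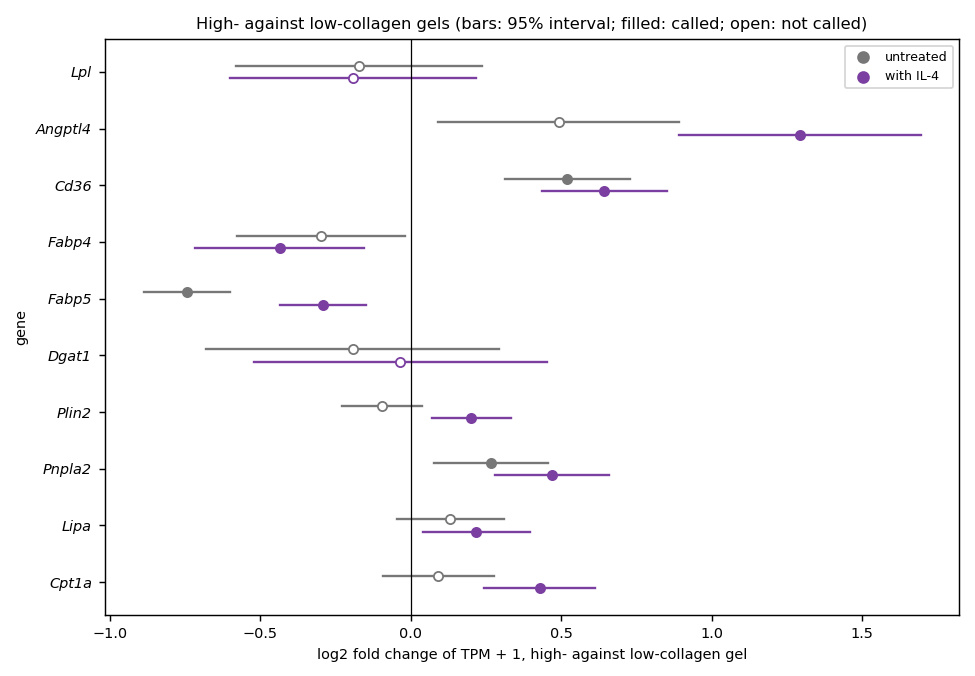
Log2 fold change of TPM + 1 in high- against low-collagen gels (x axis) for each gene (y axis), untreated and with IL-4, with bars for the 95% interval from limma, filled points for calls at an adjusted p under 0.2 and open points for genes not called. With IL-4, 6 genes are called above 0, led by Angptl4 at 1.29, and Fabp4 and Fabp5 are called below 0. The point and bar of Lpl with IL-4 are a description and no test, because these libraries took part in its choice.

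Other genes of fatty acid handling were read in 5 lists, and genes named here outside the rule given with the methods were named after their values were seen. The shares of all genes called higher and lower, against which the list counts are read, were 13.2% and 40.4% with IL-4 in low-collagen gels, 11.5% and 22.8% in high-collagen gels and 14.7% and 24.0% on plates. For untreated gels against plates they were 28.5% and 44.3% with low and 28.0% and 45.5% with high collagen. For high against low collagen they were 14.1% and 6.99% with IL-4 and 3.23% and 4.79% without. Among regulators, of which 8 of 10 reached the expression minimum, IL-4 raised Pparg, the gene of PPARγ, in every culture. Pparg was at 9.09 and 9.09 TPM on untreated plates, 33.0 and 35.2 TPM on plates with IL-4, 5.71 and 4.51 TPM in untreated low-collagen gels, 16.5 and 16.9 TPM with IL-4 there, 3.51 and 5.57 TPM in untreated high-collagen gels and 13.2 and 15.6 TPM in high-collagen gels with IL-4. Its log2 fold changes with IL-4 were 1.54 in low-collagen gels, 1.49 in high-collagen gels and 1.80 on plates (limma adjusted p = 0.00106, 0.00197 and 5.65e-05). Cebpa, a transcription factor of myeloid and fat cells, rose by 0.41, 0.38 and 0.89, and the coactivator gene Ppargc1b by 1.76, 1.44 and 0.77. Called lower were Rxrb, Srebf1 and Rxra in low-collagen gels, Rxrb in high-collagen gels, and Ppard and Srebf1 on plates, so the list had 3 higher and 3 lower, 3 and 1, and 4 and 2 calls. In untreated gels against plates Rxrb, a partner of PPARγ, was higher by 1.06 and 1.23 and Srebf1, a driver of lipid synthesis, had log2 fold changes of −1.09 and −1.18.

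The list for uptake and activation held 12 genes, of which 11 were tested. With IL-4 it had 1 gene higher (Acsl5) and 7 lower in low-collagen gels, 0 and 3 in high-collagen gels, and 1 (Vldlr) and 4 on plates, with medians of −0.41, −0.21 and −0.12. Vldlr was at 0.0747 and 0.102 TPM on untreated plates and at 0.511 and 0.566 TPM with IL-4. It passed the 1 TPM minimum only through the gel libraries. Acsl3, which links fatty acids to coenzyme A, fell by 0.94, 0.68 and 0.70 on the log2 scale (limma adjusted p = 0.036, 0.141 and 0.113), and Lrp1, a lipoprotein receptor, fell by 0.49 in each gel and by 0.81 on plates. In untreated gels 7 genes of this list were lower than on plates in each gel, led by Acsl5 (−1.41 and −1.48) and Acsl4 (−1.25 and −1.15), while Vldlr was higher by 2.39 and 2.20 from under 1 TPM on plates. Gpihbp1, which carries Lpl protein to the vessel wall in endothelium, was listed at 0 in all 12 libraries. None of the 11 genes was called between the 2 gels, with or without IL-4, and none had an unadjusted p under 0.05.

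Of the 17 genes for triglyceride synthesis and droplets, 12 were tested. IL-4 gave 5 higher and 3 lower in low-collagen gels, 4 and 2 in high-collagen gels, and 5 and 2 on plates. Lpin2, a phosphatidate phosphatase that makes the precursor of triglyceride, went from 41.3 and 55.6 TPM to 10.9 and 11.3 TPM in low-collagen gels, from 58.8 and 53.7 TPM to 25.99 and 25.4 TPM in high-collagen gels, and from 34.2 and 35.2 TPM to 23.2 and 19.6 TPM on plates. These were falls of 2.02, 1.10 and 0.68 on the log2 scale (limma adjusted p = 3.73e-05, 0.00136 and 0.00455), and with IL-4 it was higher in high- than in low-collagen gels by 1.14 (adjusted p = 0.00986). Hilpda, whose protein inhibits Pnpla2 on the droplet, rose by 0.54 in low-collagen gels (limma adjusted p = 0.126) and by 1.10 in high-collagen gels (adjusted p = 0.0193), where its libraries stood apart at 85.1 and 47.1 TPM. Soat1, which esterifies cholesterol, rose by 0.29 in low-collagen gels, 0.23 in high-collagen gels and 0.68 on plates, each called by limma. In untreated gels against plates 4 were higher and 4 lower with low collagen and 5 and 4 with high collagen, among them Gpat4 (−1.04 and −0.95) and Hilpda (0.83 and 0.85).

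The lipolysis list held 7 genes, all tested in the gel fit and 6 with plates. IL-4 gave 4 higher (Mgll, Npc1, Npc2 and Abhd5) and 1 lower (Lipe) in low-collagen gels, 3 higher and 0 lower in high-collagen gels, and 1 higher (Npc1) and 2 lower (Lipe and Npc2) on plates. Npc1, which exports cholesterol from lysosomes after Lipa has acted, rose by 0.41, 0.66 and 0.69 on the log2 scale. Abhd5, the coactivator of Pnpla2, was at 56.3 and 59.5 TPM on untreated plates and at 26.7 and 27.4 TPM in untreated low-collagen gels, a log2 fold change of −1.07, opposite in sign to the rise of Pnpla2 there. In high-collagen gels it was −1.15. Nceh1, which cleaves cholesteryl esters, was lower in untreated gels than on plates, at log2 fold changes of −1.30 and −1.33. Between the gels with IL-4, Mgll, a monoglyceride lipase, was the sole gene called. It was at 2.26 and 3.48 TPM in low-collagen gels and at 0.694 and 0.465 TPM in high-collagen gels. Its mean over the gel libraries, 1.04 TPM, passed the 1 TPM minimum only through low-collagen gels with IL-4. Its calls, here and with IL-4 in low-collagen gels, are therefore a description and carry no weight as tests.

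For oxidation, 17 of 18 genes were tested. IL-4 gave 3 higher and 4 lower in low-collagen gels, 5 and 2 in high-collagen gels, and 8 and 0 on plates. The medians were −0.02, 0.00 and 0.23 on the log2 scale. Slc25a20, the carrier that acts after Cpt1a, fell by 0.60 in low-collagen gels (limma adjusted p = 0.00641) and by 0.32 in high-collagen gels (adjusted p = 0.0985), and was not called on plates, where it was at 22.8 and 20.3 TPM untreated and at 19.01 and 19.8 TPM with IL-4. Etfa, an electron carrier of oxidation, rose by 0.21 in low-collagen gels, 0.43 in high-collagen gels and 0.51 on plates. Hadhb, of the last steps of the cycle, rose by 0.47, 0.30 and 0.24 in the same order, and limma called both genes in every culture. Between gels with IL-4, 4 were higher (Slc25a20, Acadl, Acadvl and Hadh) and 2 lower (Etfb and Echs1), and without IL-4 Etfdh was higher and Hadha lower. Untreated gels against plates gave 6 higher and 2 lower with low and 8 and 5 with high collagen, led by Acaa2 (0.72 and 0.70). No gene of the 5 lists was called for the interaction of IL-4 and collagen by limma, and 5 had an unadjusted p under 0.05, as did 1171 of all 11852 genes.

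**Figure D5:**
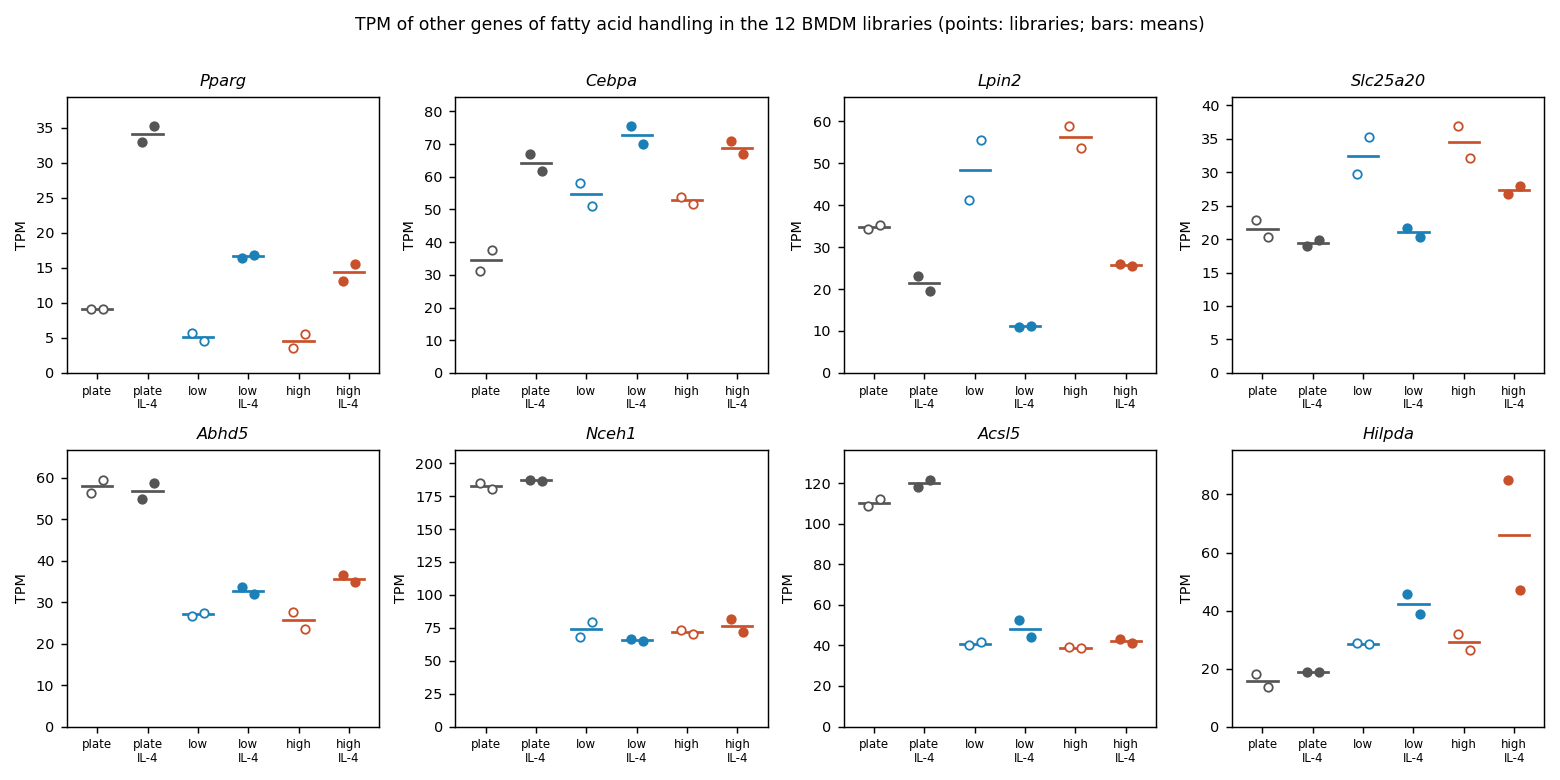
TPM (y axes, each from 0) of 8 genes around the 10, in the 12 libraries by condition (x axes), with points for libraries and bars for means. Pparg is higher with IL-4 in every culture, Lpin2 is lowest in low-collagen gels with IL-4, at 10.9 and 11.3 TPM, and Abhd5, Nceh1 and Acsl5 are lower in gels than on plates.

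Markers of other cells were read beside the IL-4 results. Adipoq, an adipocyte gene, was with IL-4 at 7.71 and 10.2 TPM in low-collagen gels and at 6.39 and 4.15 TPM with high collagen, and at or under 0.465 TPM in the other 8 libraries. The other 5 adipocyte markers did not reach a mean of 1 TPM in any condition, and 4 of them were listed at 0 in both low-collagen libraries with IL-4. The sum of all 6 was 5.15 to 10.2 TPM in gels with IL-4 and at most 1.52 TPM elsewhere. Pecam1, an endothelial marker that myeloid cells also express, was at 8.80 to 13.2 TPM in gels with IL-4 against 1.24 to 1.61 TPM in untreated gels, and at 5.48 and 8.23 TPM against 0.426 and 0.340 TPM on plates. Kdr, another endothelial marker, went from 5.18 and 5.03 TPM on untreated plates to 2.61 and 2.66 TPM once IL-4 was given (log2 fold change −0.75, limma adjusted p = 0.0138). S100a8, a granulocyte gene, had log2 fold changes with IL-4 of −0.69 in low-collagen gels (limma adjusted p = 0.0587) and −0.63 in high-collagen gels (adjusted p = 0.112). Their part in the changes of the 10 genes was not tested.

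The genes whose levels followed Lpl most closely over the 12 libraries were found among 1003 genes with a mean of at least 5 TPM and condition means that spanned at least 2 on the log2 scale. The 5 with the highest Pearson r of log2(TPM + 1) were Slc7a8 (0.985), Rasgef1b (0.985), Ftsj3 (0.982), Pno1 (0.981) and Asns (0.980). The libraries fall into a plate and a gel cluster, so these r values follow that split and carry no test. Slc7a8, an amino acid transporter, was at 180 to 186 TPM on plates and at 33.2 to 54.1 TPM in gels, and Asns, asparagine synthetase, at 69.9 to 73.3 TPM on plates and 7.58 to 11.7 TPM in gels. On plates the means with and without IL-4 were 184 and 182 TPM for Slc7a8, where those of Lpl were 366 and 227 TPM.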

How the data were processed

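Poly(A) RNA was sequenced by the authors with a stranded, paired-end protocol, and kallisto 0.46.1 (submitters' processing notes) quantified it on the GRCm38 transcriptome. The authors deposited one table of TPM per gene, and how transcripts were summed to genes is not given in the sources used here. Conditions were taken from the labels. The table's 34456 lines held 129 repeated entries, collapsed to 34327 genes. Values were taken as log2(TPM + 1). Genes with a mean of at least 1 TPM were tested with limma 3.58.1 in R 4.3.3 (one mean per condition, mean-variance trend, Benjamini-Hochberg adjustment over all genes tested). Calls were made at an adjusted p under 0.2, as in the study. Gel comparisons used the 8 gel libraries and plate comparisons all 12. The fit was also run on simulated data, in which far fewer genes changed than were called here with IL-4. That run therefore cannot tell how often the calls made here are false. TPM keep no counts, so no count test was run.

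The 10 genes and the pathway and marker lists were chosen with earlier results of these data known. Lpl was left untested in the comparisons of IL-4 with untreated cells, because the IL-4 libraries chose it. For the same reason its difference between gels with IL-4 and its interaction are given as values. Lpl stayed in those counts and medians, where its outcome is not read as a test. Named beside the 10 genes are, per comparison, the 2 called genes of each pathway list with the largest absolute log2 fold change at a mean of at least 5 TPM, and the 5 genes most correlated with Lpl. Gene positions are from GENCODE M21 (GRCm38). Alternatives were a pseudocount of 0.1, no filter or a mean of at least 5 TPM, no trend, median-ratio rescaling, quantile normalization, a replicate block, an adjusted p under 0.05, a 2-fold minimum, other sets of libraries and each library left out in turn.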

Additional observations from a re-analysis of the deposited data

Results flagged for a closer look

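For Lpl, Plin2, Lipa, Pnpla2 and Cpt1a the IL-4 response went one way on plates and the other way in gels. Both plate libraries with IL-4 lay above both untreated plate libraries, and both gel libraries with IL-4 lay below both untreated gel libraries. The log2 fold change on plates minus that in gels was 1.0941 against low-collagen and 1.1142 against high-collagen gels for Lpl, 1.2749 and 0.9787 for Plin2, 0.4594 and 0.3739 for Lipa, 1.2859 and 1.0852 for Pnpla2, and 1.22 and 0.8837 for Cpt1a. These differences were not tested, because the contrast of plates and gels with IL-4 chose the genes, and the values of Lpl are those of the choice. Lipa was not called in either gel after rescaling. Of the 11865 genes with a mean of at least 1 TPM, 12.6% went opposite ways, without overlap, on plates and in at least 1 gel, and 7.75% did so with plates rising. The genes named above did so in both gels, a stricter pattern whose share over all genes is not given here.

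For Plin2 the collagen difference had opposite signs with and without IL-4, with the 2 libraries of each gel apart in both cases. The difference of the log2 fold changes was 0.2962, and as the interaction of IL-4 and collagen it was not called (limma adjusted p = 0.362).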

How the results depend on the processing

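Of the 54 called results of the 10 genes, 18 were called under every alternative and 44 under all but the stricter thresholds, and none turned in direction. With a 2-fold minimum as well, the number of the 10 genes called was 3 (IL-4 in low-collagen gels), 3 (IL-4 in high-collagen gels), 2 (IL-4 on plates), 1 and 0 (high against low collagen with and without IL-4), and 4 and 5 (untreated low- and high-collagen gels against plates). At an adjusted p under 0.05 it was 5 and 1 between gels with and without IL-4. With single libraries left out it ranged from 4 to 6 with IL-4 and from 1 to 2 without. The interaction gave 1 gene (Fabp5) at a mean of at least 5 TPM, after quantile normalization and with all 12 libraries. The Lpl log2 difference between plates and low-collagen gels with IL-4 went from 3.62 to 3.3027 after median-ratio rescaling, and the interaction of Lipa to −0.019. With single libraries left out, some values that were not called changed sign. The ranges were −0.4924 to 0.1935 for Dgat1 with IL-4 in high-collagen gels, −0.2706 to 0.0146 for Angptl4 with IL-4 on plates, −0.3772 to 0.3087 for Dgat1 and −0.3872 to 0.0037 for Lpl between gels with IL-4. For the interaction they were −0.0128 to 0.2587 for Cd36, −0.1844 to 0.5014 for Dgat1, −0.2952 to 0.0212 for Fabp4 and −0.2156 to 0.1753 for Lpl. The cause of these shifts was not tested. The labels carry running numbers and no replicate numbers. Replicates 1 and 2 of a condition were numbered here in the order of the labels, and nothing says that a number marks a shared mouse or day. The correlation of same-numbered deviations over 15 pairs of conditions was −0.12 to 0.11, with 1 over 0.1. With a replicate block the number called was 8, 8 and 7 for IL-4 in low-collagen gels, in high-collagen gels and on plates, 8 and 3 between gels, 0 for the interaction and 10 and 10 against plates, and it changed no call. Depth is unknown, and 2 libraries per condition limit the precision.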
